A study of Mus musculus with 6 samples.

Results

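The genes described here are 44 mouse genes of protein quality control in the endoplasmic reticulum (ER), of the response to amino acid shortage that the transcription factor ATF4 drives, and of the charging of transfer RNAs. They were chosen by name, with earlier results of these data known. The listed symbols were matched through the GENCODE M21 annotation (mm10) to the Ensembl identifiers of the deposited table. All 44 were found among the 21785 genes of that table. Ero1l is the listed symbol of the gene now called Ero1a, and the synthetase genes are given by their short symbols. All 44 passed the filter on low values, and the lowest value of any of them in any library was 87 normalized read counts. The measurements come from total RNA sequencing of pulmonary arterial smooth muscle cells (PASMCs), the muscle cells of the lung artery wall, grown out of lung arteries of C57BL/6 mice that had been filled with iron particles and collected with a magnet. The stimulated group, of 3 samples, received bone morphogenetic protein 9 (BMP9, 1 ng/mL) together with BMP10 (5 ng/mL) for 6 h. The control group, of 3 samples, was kept without the ligands. Both groups had been held in medium without supplements for 48 h beforehand and carried no genetic change named in the labels. Each ligand was given only in the mixture and at 1 time point, and the labels give neither the age or number of the mice nor whether each sample was its own culture, so the p-values rest on the spread among these samples, which may be technical.

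Proteins that enter the ER are folded there by chaperones, joined by disulphide bonds and, where folding fails, sent back to the cytosol for destruction. When unfolded proteins build up, the sensors IRE1 (gene Ern1), PERK (Eif2ak3) and ATF6 raise the output of chaperone genes, splice the messenger of Xbp1 and phosphorylate the translation factor eIF2alpha. Phosphorylation of eIF2alpha, by PERK or by the amino acid sensor GCN2 (Eif2ak4), slows translation in general but favours translation of ATF4, which then turns on genes of amino acid synthesis, amino acid uptake and tRNA charging. A table of counts per gene shows transcript levels. It does not show Xbp1 splicing, eIF2alpha phosphorylation or ATF4 protein, none of which was analysed here.

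All levels below are normalized read counts as the authors deposited them. Their library sums were 30786695, 31903795 and 31754704 in stimulated replicates 1 to 3 and 28283597, 27295973 and 28174327 in control replicates 1 to 3. Every stimulated sum was thus above every control sum. A change is the stimulated minus control difference on the log2(value + 1) scale with its standard error, and a gene is said to have risen or fallen where limma's p-value, adjusted by Benjamini-Hochberg over all 21743 genes tested, was under 0.05. All 8 smooth muscle markers were detected in every library, with summed levels of 84557 to 180046 in stimulated samples and 35379 to 53976 in controls, and 4 of the 8 rose. Acta2 alone was at 69094 to 153164 in stimulated samples and 23470 to 37627 in controls. Of the 8 changes 6 were above 0, and those of Des (-0.43) and Synpo2 (-0.12) were below it. The cultures also held transcripts of other cells, with no marker at 0 in any library. The 10 endothelial markers summed to 9243, 40666 and 15122 in stimulated replicates 1 to 3 and to 11305, 41845 and 13198 in control replicates 1 to 3, so that replicate 2 was the highest of both groups for all 10. The 7 epithelial markers summed to 1905, 36113 and 16894 in stimulated and to 3485, 32935 and 8256 in control replicates. Sftpc alone was at 1114, 29469 and 12248 in stimulated and 826, 19538 and 4401 in control replicates. The median log2 change of the 7 was -0.72, with 2 changes above 0. The 6 macrophage and leukocyte markers summed to 21297, 10556 and 16791 in stimulated and to 16351, 12622 and 8881 in control replicates. Of 5 fibroblast markers, which summed to 136111 to 268418 in stimulated and 147111 to 222144 in control samples, Pdgfra fell (-1.29, limma adjusted p = 0.00639). Dpt (0.25), Col1a1 (0.10), Dcn (-0.02) and Lum (-0.04) did not pass. The 4 pericyte markers summed to 6318 to 8766 in stimulated and 2318 to 4722 in control samples, and of them Cspg4 rose (1.77, limma adjusted p = 0.000832). Cspg4 alone was at 5679, 6681 and 7527 in stimulated and 1752, 1876 and 2192 in control replicates. Kcnj8 (-0.99), Abcc9 (-0.33) and Rgs5 (0.62) did not pass. With the block Rgs5 rose (limma adjusted p = 0.0178) and Kcnj8 fell (0.041). None of the endothelial, epithelial, mesothelial or leukocyte markers rose or fell; with the block, 1 endothelial and 2 epithelial markers rose, and 3 endothelial, 1 epithelial and 1 mesothelial (Msln) fell. The part of all these markers in the results below was not tested. In such mixed samples, fewer cells of a type and less RNA per cell cannot be told apart.

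Of the 44 genes, 8 rose, 1 fell and 35 did not pass the test. The rises were 3 ER folding genes (Dnajc3, Manf and Hspa5), the degradation gene Edem1 and 4 tRNA synthetase genes (Gars, Tars, Farsb and Eprs), and the fall was that of Ddit3. Over all genes tested, 8.61% rose and 4.75% fell, 13.4% together, against 20.5% of these 44 genes; the difference between the shares was not tested. The median log2 change of the 44 genes was 0.23, beside -0.03 over all genes tested, and 35 of the 44 changes were above 0, beside 10266 of all 21743. Both depended on scaling. With upper-quartile factors the median of the 44 was 0.15 (-0.11 over all genes) and 29 changes were above 0. With equal library totals the median was 0.06 (-0.20 over all genes) and 23 changes were above 0. Deviations of same-numbered libraries from their group means correlated at 0.747 for number 1, 0.741 for number 2 and 0.218 for number 3. Stimulated replicate 1 with control replicate 3, of unlike number, gave 0.287. A fit that kept the replicate number as a block called 17 of the 44 genes higher and 1 lower, beside 14.9% and 12.0% of all genes tested (26.8% together). The 9 genes that passed only with the block were Atf4, Xbp1, Ero1l, Herpud1, Mthfd2, Asns, Iars, Yars and Rars, and 26 genes passed in neither fit. The groups did not overlap for 18 of the genes, of which 17 were higher in every stimulated library, beside 33.2% of all genes tested without overlap (17.8% higher and 15.4% lower).

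**Figure D1:**
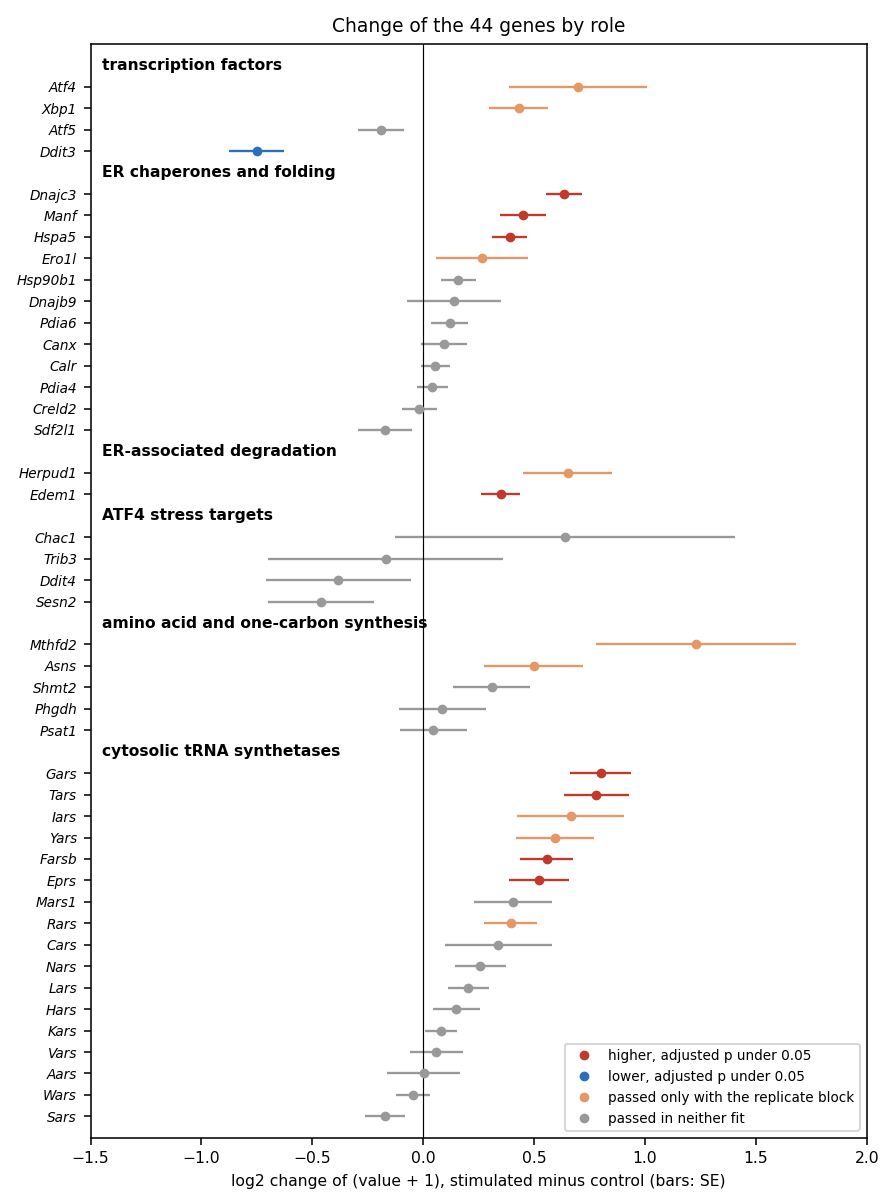
Change of each of the 44 genes on the log2(value + 1) scale, stimulated minus control, with its standard error (3 libraries per group), grouped by role. Red points rose, the blue point (Ddit3) fell, orange points passed only with the replicate number as a block and grey points passed in neither fit; the changes run between -0.75 for Ddit3 and 1.23 for Mthfd2.

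Scaling and single libraries set how many of these genes passed. With equal library totals, which put the median of all genes at -0.20 (log2), 3 of the 44 genes rose (Dnajc3, Gars and Tars) while 2 fell (Ddit3 and Sars), and with upper-quartile factors, at a median of -0.11, 4 rose and 1 fell. Without the mean-variance trend in the fit, 1 rose (Dnajc3) and 1 fell (Ddit3). Hspa5, Manf, Edem1, Gars, Tars, Farsb and Eprs did not pass there (limma adjusted p of 0.0516 to 0.127). The lists of lost calls given below for these genes leave that setting out. Over all genes tested, 3400 passed with equal totals (33.4% of them higher), 2772 with upper-quartile factors (51.2% higher) and 1610 without the trend (61.1% higher). The main fit gave 2905 (64.5% higher). Leaving out stimulated replicate 2, the library with the highest levels of most ATF4-related genes, left 4 rises and 2 falls, and leaving out both replicate 2 libraries left 7 rises and 1 fall. Over all genes tested those fits called 2056 and 2398. Only Dnajc3 passed in each fit that left out 1 library: without stimulated replicate 3, control replicate 1 or control replicate 3, it was the 1 gene of the 44 that passed. In each of those 3 fits far fewer genes passed in all (917, 1164 and 1163, against 2905 with all libraries).

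Among the 12 genes of ER chaperones and folding, there were 3 rises and no falls (4 rises with the block), and the median log2 change was 0.13. Of all genes tested, 8.61% rose and 4.75% fell, and 14.9% rose with the block. The difference from these shares was not tested. Hspa5 encodes BiP, the abundant ER chaperone of the HSP70 family that also holds the stress sensors inactive. Its level was 44204, 41947 and 48027 in stimulated replicates 1 to 3 and 34124, 33643 and 34484 in control replicates 1 to 3. Every stimulated library lay above every control library, and the control values were close together. The means were 44726 ± 3073 in stimulated and 34084 ± 422 in control samples (SD, n = 3 each), a log2 change of 0.39 ± 0.08 or 1.31-fold (limma adjusted p = 0.0222). Hspa5 lies on chromosome 2 from 34771970 to 34777547 (mm10, plus strand) and no exon of another annotated gene overlaps it. By limma it did not pass without stimulated replicate 1 (adjusted p = 0.0512), stimulated replicate 3 (0.0952), control replicate 1 (0.0854) or control replicate 3 (0.0831), nor with upper-quartile factors (0.0641) or equal library totals (0.0993).

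Dnajc3, a co-chaperone of BiP that also restrains PERK, showed the clearest rise of the folding genes. Its normalized read counts were 8581, 9445 and 9577 in stimulated replicates 1 to 3 and 5706, 5776 and 6286 in control replicates 1 to 3. The groups were well apart, and the differences within replicate numbers 1, 2 and 3 were alike, at 0.59, 0.71 and 0.61. The mean was 9201 ± 541 in stimulated and 5923 ± 317 in control samples, a log2 change of 0.64 ± 0.08 (limma adjusted p = 0.00456), and the call was kept under each of the 18 alternatives tried. Manf encodes a small ER protein that is secreted under stress. It was at 3414, 3933 and 4179 in stimulated and 2570, 2859 and 2994 in control replicates, without overlap, and rose by 0.45 ± 0.10 (limma adjusted p = 0.0336). The call for Manf was lost without stimulated replicate 2 (0.0814), stimulated replicate 3 (0.131) or any of the 3 control replicates (adjusted p of 0.063 to 0.121), without both replicate 2 libraries (0.114), and with upper-quartile factors (0.052) or equal library totals (0.108). Antisense exons of Dcaf1 and 4930524O07Rik overlap 8.85% of its exonic length.

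The other abundant chaperones differed little between the groups. Calr encodes calreticulin, a lectin-like chaperone of glycoproteins. Its level was 27230, 27645 and 27973 in stimulated and 27034, 26195 and 26559 in control replicates. The groups did not overlap, but the difference was small, at a log2 change of 0.05 ± 0.07 (limma adjusted p = 0.648). Hsp90b1, the ER chaperone of the HSP90 family, was also higher in each stimulated library, at 27395 ± 1318 against 24549 ± 1172 in controls (log2 change 0.16 ± 0.08, limma adjusted p = 0.234), with antisense exons over 10.3% of its exonic length. Changes of Canx (calnexin, the membrane-bound partner of calreticulin), of the disulphide isomerase genes Pdia4 and Pdia6 and of Creld2 lay between -0.02 and 0.12, with limma adjusted p-values of 0.403 to 0.910. Dnajb9, a co-chaperone that recognises misfolded segments, had a change of 0.14 ± 0.21, and Sdf2l1, an ER protein that works with co-chaperones of BiP, one of -0.17 ± 0.12. Ero1l, the oxidase that recharges disulphide isomerases, had values of 4925, 3209 and 4694 in stimulated and 4153, 2784 and 3703 in control replicates. Replicate 2 was the lowest of each group, the groups overlapped, and within each replicate number the stimulated library was higher, by 0.25, 0.20 and 0.34. Ero1l did not pass without the block (limma adjusted p = 0.457) and passed with it (0.023), but not with equal totals and the block together (0.09, 0.326). With equal library totals the changes of Hsp90b1, Canx, Calr, Pdia4, Pdia6 and Dnajb9 turned slightly negative.

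The promoters of the chaperone genes are shown because many of them carry the ER stress response element (ERSE), the site through which ATF6 and NF-Y are known to act. Its letters, CCAAT followed after any 9 bases by CCACG, were searched on both strands in RefSeq windows (GRCm38.p6) of 250 bases before and 50 bases after each start site; 36 of the 44 genes had a window, and Manf, Cars, Hars, Lars, Nars, Rars, Vars and Wars had none. A match stood in the windows of 7 genes, all of them folding genes, and in 0.119% of all 32851 windows. Each stretch below is read on the strand of its gene, with the CCAAT and CCACG letters, or their reverse complements, in capitals.
Hspa5 (chr2:34772015-34772053, plus strand): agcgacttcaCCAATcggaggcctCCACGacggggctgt
Hsp90b1 (chr10:86705628-86705666, minus strand): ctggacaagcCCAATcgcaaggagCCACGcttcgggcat
Hsp90b1 (chr10:86705523-86705561, minus strand): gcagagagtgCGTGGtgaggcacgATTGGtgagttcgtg
Dnajc3 (chr14:118937817-118937855, plus strand): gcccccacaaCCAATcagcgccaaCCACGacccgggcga
Pdia6 (chr12:17266481-17266519, plus strand): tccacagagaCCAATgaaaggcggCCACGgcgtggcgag
Calr (chr8:84847065-84847103, minus strand): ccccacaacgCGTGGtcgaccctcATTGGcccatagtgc
Canx (chr11:50325790-50325828, minus strand): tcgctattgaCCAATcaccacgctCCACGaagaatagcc
Creld2 (chr15:88819510-88819548, plus strand): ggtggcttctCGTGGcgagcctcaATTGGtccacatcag
Of these 7 genes, Hspa5 and Dnajc3 rose, and Hsp90b1, Pdia6, Calr, Canx and Creld2 did not pass the test. The match lay 65 to 47 bases before the start site in Hspa5 and 105 to 87 bases before it in Dnajc3, and Hsp90b1 held a match on each strand. The 250 bases before the start sites of the rising genes of this group with a window were as follows, with the same letters in capitals.
Hspa5 (chr2:34771840-34772089, plus strand): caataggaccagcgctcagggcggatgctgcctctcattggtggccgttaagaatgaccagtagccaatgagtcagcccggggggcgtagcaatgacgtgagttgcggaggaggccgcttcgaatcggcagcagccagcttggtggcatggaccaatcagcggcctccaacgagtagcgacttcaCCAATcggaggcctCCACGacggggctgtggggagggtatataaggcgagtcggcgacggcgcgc
Dnajc3 (chr14:118937682-118937931, plus strand): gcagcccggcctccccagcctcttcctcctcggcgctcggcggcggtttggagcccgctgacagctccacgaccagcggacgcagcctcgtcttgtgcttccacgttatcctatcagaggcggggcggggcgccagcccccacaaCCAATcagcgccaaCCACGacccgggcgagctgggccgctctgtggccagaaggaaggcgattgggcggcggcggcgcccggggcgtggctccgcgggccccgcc

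Of the genes of ER-associated degradation, Edem1 rose and Herpud1 passed only with the block. Edem1 encodes a lectin that picks out misfolded glycoproteins for destruction. Its values were 4649, 5187 and 5402 in stimulated and 3769, 4234 and 3949 in control replicates, so that all stimulated libraries were above all controls, and the log2 change was 0.35 ± 0.09 (limma adjusted p = 0.0444). The call was lost without stimulated replicate 2 (0.0985), stimulated replicate 3 (0.162), control replicate 1 (0.155) or control replicate 3 (0.141), without both replicate 2 libraries (0.0797), and with upper-quartile factors (0.0755), equal totals (0.217) or equal totals and the block together (0.0802). Herpud1 encodes a membrane component of the degradation complex. It was at 2531, 4134 and 3094 in stimulated and 1789, 2469 and 1892 in control replicates. Replicate 2 was the highest of each group, and the lowest stimulated library was above the highest control. Its log2 change was 0.65 ± 0.20 (limma adjusted p = 0.0778; 0.00148 with the replicate block; 0.0485 without both replicate 2 libraries). The window of Herpud1 holds a match to the related element ERSE-II (ATTGG, any base, then CCACG, both strands searched), which stood in 0.0365% of all windows.
Herpud1 (chr8:94386367-94386397, plus strand): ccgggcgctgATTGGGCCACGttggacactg

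Of the 4 transcription factor genes, Ddit3 fell and the others did not pass. Ddit3 encodes CHOP, a factor of the late, death-prone phase of ER stress. Its normalized read counts were 1099, 1421 and 1064 in stimulated replicates 1 to 3 and 2028, 1901 and 2060 in control replicates 1 to 3. All stimulated libraries lay below all controls, and the highest of them was replicate 2. The mean fell to 1195 ± 197 in stimulated samples, against 1996 ± 84.1 in controls, a log2 change of -0.75 ± 0.13 (limma adjusted p = 0.0112), and this fall was called under each scaling tried. By limma the call was lost without stimulated replicate 3 (0.0591), control replicate 1 (0.0536) or control replicate 3 (0.0567). Ddit3, on chromosome 10 from 127290774 to 127296288 (mm10, plus strand), runs tail to tail into Mars, the methionine synthetase gene listed here as Mars1. Antisense exons overlap 4.73% of its exonic length, and a second gene model of the same symbol another 6.13%.

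Atf4 itself was at 5905, 13348 and 8410 in stimulated and 4626, 7279 and 4624 in control replicates. Replicate 2 was the highest of each group, by a wide margin among the stimulated samples, and the groups overlapped. The log2 change was 0.70 ± 0.31, which did not pass without the block (limma adjusted p = 0.195) and passed with it (0.00536), the differences within replicate numbers 1, 2 and 3 being 0.35, 0.87 and 0.86. Xbp1, the factor activated by IRE1-dependent splicing, was at 5380, 6750 and 6023 in stimulated and 3993, 5263 and 4255 in control replicates. Its groups did not overlap, its change was 0.43 ± 0.13 (limma adjusted p = 0.0771; 0.0037 with the block), and it passed without the block when control replicate 2 (0.0342) or both replicate 2 libraries (0.043) were left out. Atf5, a relative of Atf4 whose translation is likewise favoured under stress, had a change of -0.19 ± 0.10 (limma adjusted p = 0.276), and with equal totals and the block together it was called lower (-0.37, 0.00714).

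None of the 4 ATF4 stress targets passed, with or without the block, and their median log2 change was -0.28. Chac1 encodes an enzyme that breaks down glutathione. It was at 87, 860 and 385 in stimulated and 141, 282 and 191 in control replicates. Its lowest and highest values of all 6 libraries were both in stimulated samples, and its change of 0.64 ± 0.77 was smaller than its standard error (limma adjusted p = 0.639; -0.10 without stimulated replicate 2). Ddit4 encodes REDD1, an inhibitor of the growth kinase mTORC1, and was at 541, 1330 and 830 in stimulated and 970, 1435 and 954 in control replicates. Each stimulated library was below the control of the same number, with log2 differences of -0.84, -0.11 and -0.20, and the groups overlapped (log2 change -0.38 ± 0.33, limma adjusted p = 0.497). Trib3, a pseudokinase gene, was at 296, 1202 and 620 in stimulated and 488, 1132 and 569 in control replicates, highest in replicate 2 of both groups. Sesn2, which encodes the leucine-sensing inhibitor sestrin 2, was at 809, 1664 and 1119 in stimulated replicates, where it varied 2.06-fold, and at 1623, 1526 and 1584 in control replicates, where it hardly varied. Sesn2 had a log2 change of -0.46 ± 0.24 (limma adjusted p = 0.259) and was called lower without stimulated replicate 2 (0.036). With equal totals and the block together Sesn2 (-0.63, 0.031) and Ddit4 (-0.56, 0.0183) were both called lower.

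Genes of amino acid and folate-linked carbon synthesis did not pass without the block, and Mthfd2 and Asns passed with it; the median log2 change of the 5 was 0.31. Mthfd2, a mitochondrial enzyme that oxidises folate-bound carbon units, had the largest change of all 44 genes. Its values were 709, 2710 and 1507 in stimulated and 518, 782 and 550 in control replicates. The stimulated values spread 3.82-fold and the lowest of them was below the highest control. The log2 change was 1.23 ± 0.45 (limma adjusted p = 0.124; 0.0101 with the block), with differences within replicate numbers of 0.45, 1.79 and 1.45, and it passed without stimulated replicate 1 (0.0238). Asns, asparagine synthetase, was at 2264, 4393 and 3239 in stimulated and 2199, 2422 and 2149 in control replicates. Stimulated replicate 1 was inside the control range and the other stimulated libraries were above it (log2 change 0.50 ± 0.22, limma adjusted p = 0.195; 0.0469 with the block, 0.0341 without stimulated replicate 1, and 0.0978 with equal totals and the block together, at a change of 0.32). The serine synthesis genes Phgdh (0.09 ± 0.20) and Psat1 (0.05 ± 0.15) and the serine hydroxymethyltransferase gene Shmt2 (0.31 ± 0.17) had limma adjusted p-values of 0.296 to 0.880. The directions of Phgdh and Psat1 turned negative with equal library totals and without stimulated replicate 2.

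Of 17 cytosolic tRNA synthetase genes, whose enzymes join each amino acid to its tRNA, 4 rose and 13 did not pass (7 rises with the block). Their median log2 change was 0.34. Beside them, 8.61% of all genes tested rose, and 14.9% with the block, and the difference from these shares was not tested. Gars, glycyl-tRNA synthetase, was at 8117, 12014 and 9698 in stimulated and 5662, 5632 and 5620 in control replicates. The controls were almost identical, the stimulated libraries were all above them, and replicate 2 was the highest. Its mean was 9943 ± 1960 in stimulated and 5638 ± 21.6 in control samples, a log2 change of 0.80 ± 0.14 or 1.74-fold (limma adjusted p = 0.0128). Tars, threonyl-tRNA synthetase, was at 4849, 7304 and 5949 in stimulated and 3500, 3298 and 3599 in control replicates, again without overlap, and rose by 0.78 ± 0.15 (limma adjusted p = 0.0167). By limma both calls were lost without stimulated replicate 3 (0.0661 for Gars and 0.0797 for Tars), control replicate 1 (0.0545 and 0.0634) or control replicate 3 (0.058 and 0.0626), while both were kept under each scaling.

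Farsb encodes the beta subunit of phenylalanyl-tRNA synthetase. Its values were 1606, 2019 and 1858 in stimulated and 1209, 1374 and 1140 in control replicates, without overlap (log2 change 0.56 ± 0.12, limma adjusted p = 0.0255). Farsa, the gene of the partner alpha subunit, had a change of 0.19 ± 0.10 (limma adjusted p = 0.279). Eprs, the fused glutamyl-prolyl-tRNA synthetase, was at 9142, 13304 and 10313 in stimulated and 7746, 7471 and 7314 in control replicates and rose by 0.52 ± 0.14, just past the threshold (limma adjusted p = 0.0494). Farsb was not called without stimulated replicate 2 (0.0622), stimulated replicate 3 (0.108), control replicate 1 (0.0939) or control replicate 3 (0.1), or with equal library totals (0.0703). Eprs lost its call without any library other than stimulated replicate 1 (adjusted p of 0.052 to 0.151), without both replicate 2 libraries (0.0684), and with upper-quartile factors (0.0641), relative log expression factors (0.0505), equal totals (0.11) or a pseudocount of 0.1 (0.0513). Antisense exons of Sgpp2 overlap 9.47% of the exonic length of Farsb.

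The synthetase genes that passed only with the block were Iars, Yars and Rars. Iars, isoleucyl-tRNA synthetase, was at 2879, 5900 and 4118 in stimulated and 2484, 2917 and 2425 in control replicates, where stimulated replicate 1 lay inside the control range (log2 change 0.66 ± 0.24, limma adjusted p = 0.124; 0.0167 with the block and 0.0302 without stimulated replicate 1). Yars, tyrosyl-tRNA synthetase, was at 2043, 3374 and 2378 in stimulated and 1655, 1713 and 1675 in control replicates, with no overlap (log2 change 0.60 ± 0.18, limma adjusted p = 0.0691; 0.0155 with the block and 0.0382 without stimulated replicate 1). Rars, arginyl-tRNA synthetase, was at 5682, 4618 and 5296 in stimulated and 4398, 3481 and 4004 in control replicates. Unlike the others it was lowest in replicate 2 of both groups, and its differences within replicate numbers were nearly equal, at 0.37, 0.41 and 0.40 (log2 change 0.39 ± 0.12, limma adjusted p = 0.0726; 0.00405 with the block).

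The other synthetase genes passed in neither the main fit nor the fit with the block. Aars, alanyl-tRNA synthetase, was at 6597, 10463 and 7379 in stimulated and 7838, 8155 and 7935 in control replicates. The highest control was 1.04-fold the lowest, while stimulated replicate 1 was below and stimulated replicate 2 above all of them, so that the change was 0.00 ± 0.16 (limma adjusted p = 0.997). Exosc6, a gene on the same strand, shares 14.3% of its exonic length. Mars1 (0.40 ± 0.18), Nars (0.26 ± 0.12) and Lars (0.20 ± 0.09) were higher in every stimulated library than in any control without passing the test (limma adjusted p = 0.184, 0.196 and 0.207). Cars, Hars, Kars, Vars, Wars and Sars had changes between -0.17 and 0.34 with overlapping groups and limma adjusted p-values of 0.272 to 0.794, and Sars was called lower with equal library totals (-0.35, 0.0367).

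The synthetase promoters are shown because ATF4 is known to bind composite elements of the form TGATGNAAT. That sequence was searched on both strands. It stood in 0.965% of all windows and in those of 3 of the 36 genes with a window, of which 1 rose. The shorter TGATGCAA stood in 0.895% of all windows and in those of 6 of the 36 genes with a window, of which 1 rose. Some of these windows are shown, which are not a full list: the longer form for Gars and Iars, and the shorter for Iars, where it overlaps the longer, and for Tars, Yars, Chac1 and Herpud1. The stretches are read on the strand of each gene, with the match or its reverse complement in capitals.
Chac1 (chr2:119351039-119351066, plus strand): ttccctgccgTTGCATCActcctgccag
Gars (chr6:55037960-55037988, plus strand): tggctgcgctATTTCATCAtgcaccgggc
Herpud1 (chr8:94386307-94386334, plus strand): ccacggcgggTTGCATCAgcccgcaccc
Iars (chr13:49682126-49682154, plus strand): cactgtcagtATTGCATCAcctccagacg
Tars (chr15:11399656-11399683, minus strand): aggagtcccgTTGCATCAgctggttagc
Yars (chr4:129189896-129189923, plus strand): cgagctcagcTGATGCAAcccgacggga
The 250 bases before the start sites of Gars and Tars, the rising genes among those shown, were as follows.
Gars (chr6:55037751-55038000, plus strand): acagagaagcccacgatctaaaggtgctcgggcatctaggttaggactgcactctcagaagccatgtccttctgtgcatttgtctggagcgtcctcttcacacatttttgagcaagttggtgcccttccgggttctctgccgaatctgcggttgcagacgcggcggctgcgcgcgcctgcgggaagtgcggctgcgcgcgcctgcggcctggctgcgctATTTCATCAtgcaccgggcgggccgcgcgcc
Tars (chr15:11399659-11399908, minus strand): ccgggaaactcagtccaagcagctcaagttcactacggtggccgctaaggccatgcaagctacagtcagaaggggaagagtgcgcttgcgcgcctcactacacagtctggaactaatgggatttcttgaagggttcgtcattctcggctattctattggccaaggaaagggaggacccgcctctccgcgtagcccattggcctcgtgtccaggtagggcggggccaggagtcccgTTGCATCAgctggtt
These matches are descriptions of the letters; no binding was measured.

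**Figure D2:**
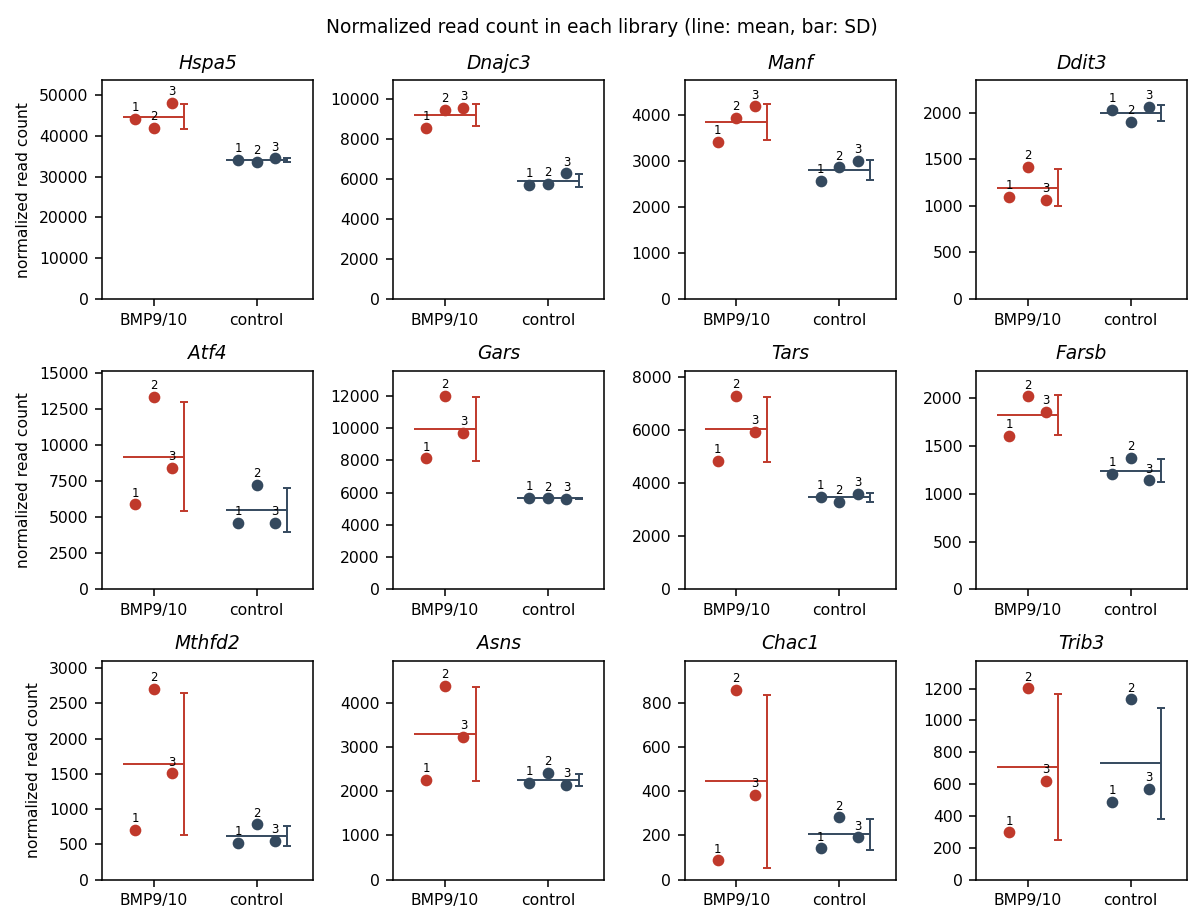
Normalized read count (linear axis from 0) of 12 of the genes in each library, BMP9/10-stimulated on the left and control on the right, with the replicate number above each point, the mean as a line and the SD as a bar. Hspa5, Dnajc3, Manf, Gars, Tars and Farsb were higher in all stimulated libraries and Ddit3 lower in all of them, while Chac1 spanned 87 to 860 among the stimulated libraries alone.

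The stimulated libraries differed among themselves more for ATF4-related genes than for chaperones. The ratio of the highest to the lowest stimulated library had a median of 3.26 for the ATF4 stress targets, 1.66 for amino acid and folate-linked genes, 1.33 for synthetases and 1.13 for folding genes, against 1.75, 1.13, 1.09 and 1.11 among controls. Over all genes tested with a mean of at least 50, those medians were 1.23 in stimulated and 1.21 in control samples. Stimulated replicate 2 held the highest stimulated value for 4 of 4 stress targets, 5 of 5 amino acid and folate-linked genes and 14 of 17 synthetases, but for 2 of 12 folding genes, beside 38.4% of all genes tested. Control replicate 2 was the highest control for 3 of 4 stress targets, 4 of 5 amino acid and folate-linked genes, 5 of 17 synthetases and 2 of 12 folding genes, beside 40.1% of all genes tested. Within replicate number 1 the median log2 difference of the stress targets was -0.78 and that of the synthetases 0.09. Within replicate number 2 these medians were 0.11 and 0.55, and within replicate number 3 they were -0.04 and 0.36. The folding genes gave medians of 0.12, 0.15 and 0.12 within the same 3 numbers. The endothelial, epithelial and mesothelial marker sums were also highest in replicate 2 of both groups, and in stimulated replicate 2 the smooth muscle markers summed to 180046, against 84557 and 124787 in stimulated replicates 1 and 3; whether this bears on the ATF4-related genes was not tested.

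**Figure D3:**
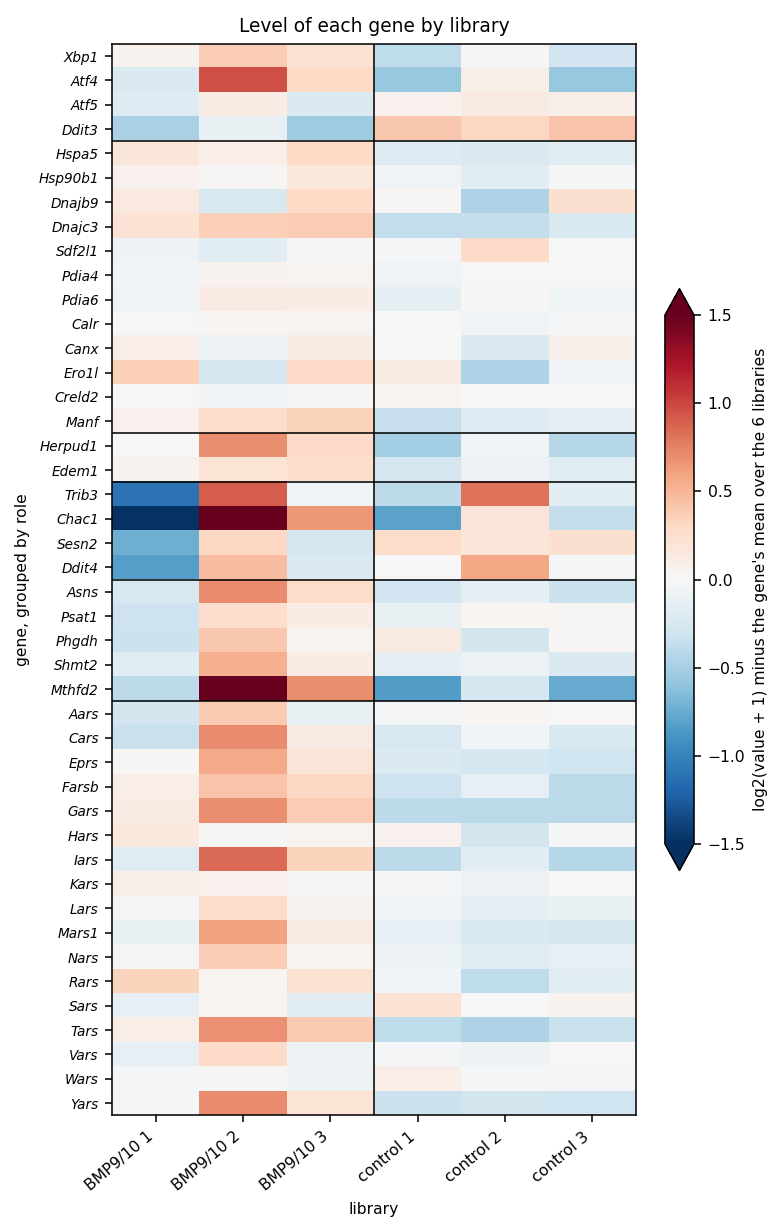
Log2(value + 1) of each gene in each library, less the mean of that gene over the 6 libraries, with the stimulated libraries on the left and genes grouped by role; the colour scale ends at 1.5 on either side. The ATF4 stress targets were lowest in stimulated replicate 1 and high in stimulated replicate 2, while Dnajc3, Hspa5 and Ddit3 separated the groups in every library.

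**Figure D4:**
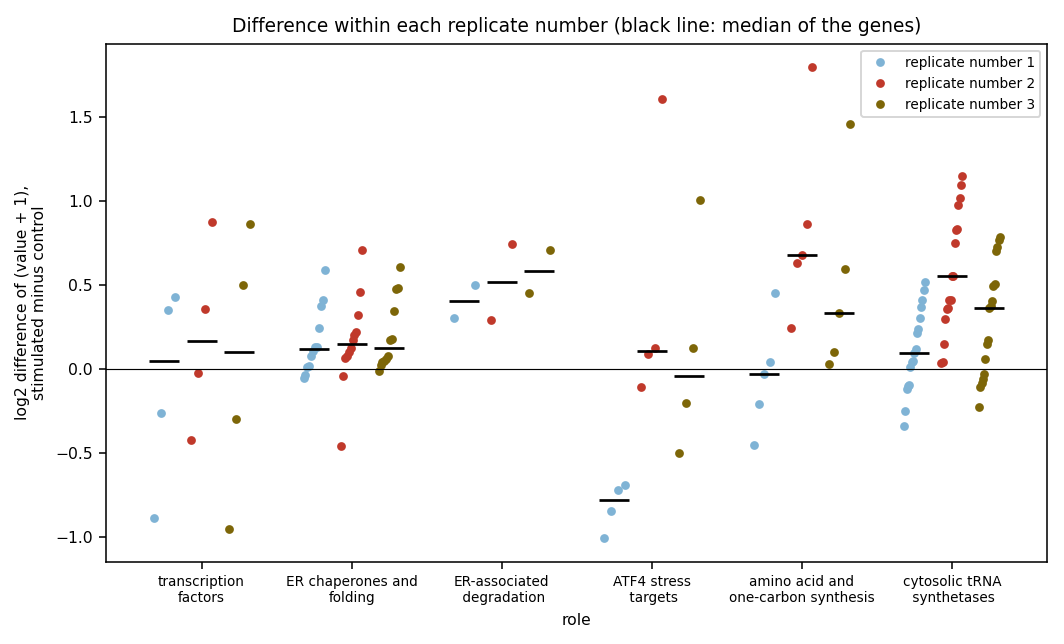
Stimulated minus control difference in log2(value + 1) within replicate numbers 1, 2 and 3 for each gene (points) by role, with the median of the genes as a black line. The medians of the folding genes were 0.12, 0.15 and 0.12, and those of the stress targets -0.78, 0.11 and -0.04.

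The genes covered a wide range of levels when counted per kilobase of exon. Hspa5 (10576 in stimulated and 8060 in control samples) and Calr (9589 and 9235) were the most abundant, and Hsp90b1 and Canx followed at 5582 to 6794 normalized read counts per kilobase. Among transcription factors Atf4 was highest per kilobase (3911 in stimulated and 2337 in control samples), and Ddit3 was lowest, at 697 in stimulated and 1165 in control samples. Of the synthetases Gars was highest in stimulated samples (3188 in stimulated and 1808 in control samples), Nars in controls (2264 and 1882), and Cars was lowest in both (355 and 269). Chac1 was the lowest of all 44 genes, at 271 in stimulated and 125 in control samples. Per kilobase, Asns led the amino acid and folate-linked genes (1206 and 825), Ddit4 the stress targets (513 and 638) and Herpud1 the degradation genes (1394 and 879).

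**Figure D5:**
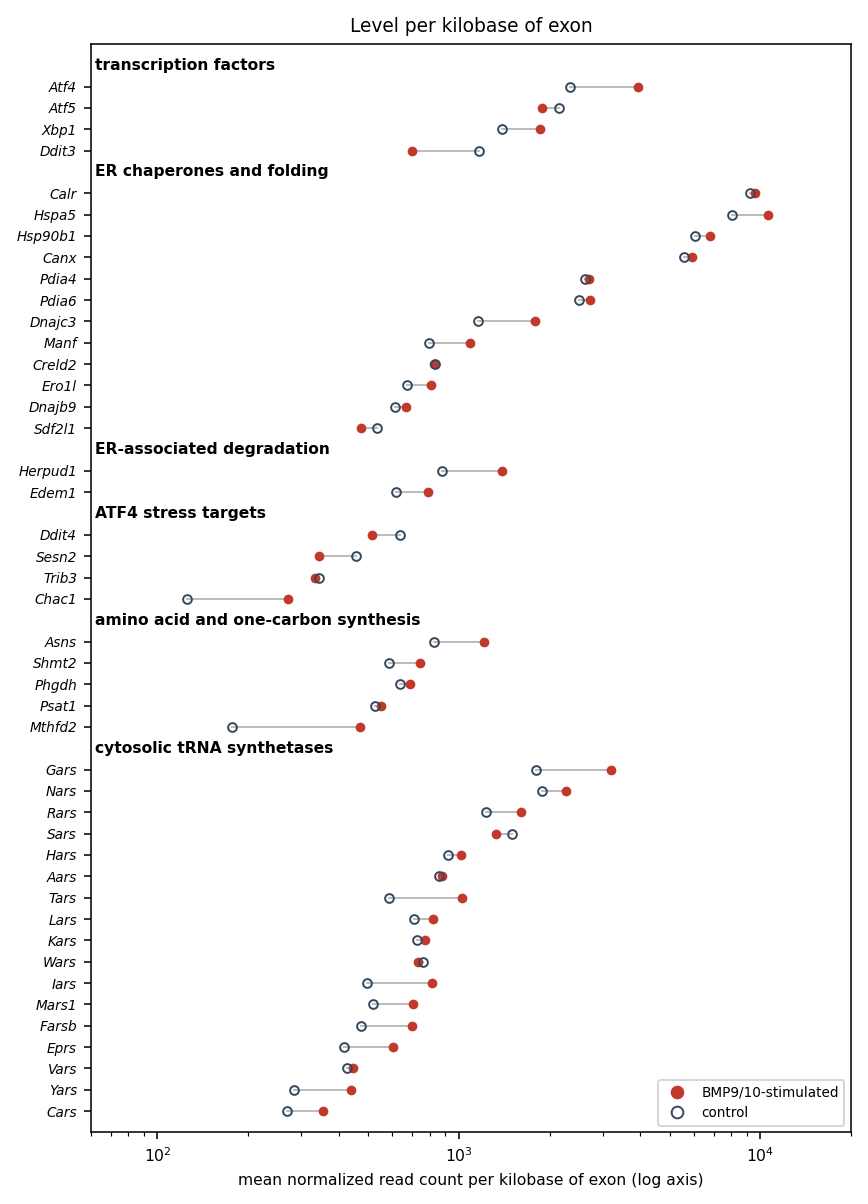
Mean normalized read count per kilobase of exon (log axis) of each gene in stimulated (filled red) and control (open dark) samples, means of 3 libraries each, ordered within each role. Hspa5, Calr, Hsp90b1 and Canx had the 4 highest levels in both groups, and Chac1 was the lowest gene, at 271 in stimulated and 125 in control samples.

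Other genes of the same pathways were taken from lists by role, chosen with earlier results of these data known. They gave 15 rises and 3 falls among 89 genes tested, with a median log2 change of 0.15. That was 20.2% of them, beside 8.61% risen and 4.75% fallen of all genes tested (13.4% together). With the block there were 28 rises and 6 falls, beside 14.9% and 12.0%. The share called was 35.3% for sensors and the eIF2alpha arm, 21.05% for folding and degradation genes, 19.2% for ATF4 targets and 16.7% for cytosolic synthetases and scaffold. Differences between shares were not tested. Of 17 genes of the sensors and the eIF2alpha arm, 5 rose and 1 fell. Eif2s1, which encodes eIF2alpha itself, was at 4170, 4177 and 4613 in stimulated and 2683, 2387 and 2651 in control replicates and rose by 0.75 ± 0.09 (limma adjusted p = 0.00311), a call kept in every fit tried. Eif2b3, a subunit of the factor that recharges eIF2, rose by 0.55 ± 0.10 (limma adjusted p = 0.0126) but did not pass by limma without control replicate 3 (0.0626) or both replicate 2 libraries (0.0505). Ern1, the IRE1 sensor gene, rose to 2325 ± 110 in stimulated samples, against 1707 ± 52.2 in controls (0.44 ± 0.08, limma adjusted p = 0.0131). By limma it was not called without stimulated replicate 3 (0.0677), control replicate 1 (0.0625) or control replicate 3 (0.0654), with equal library totals (0.0575) or without the trend (0.0578). Eif2ak3, the PERK gene (0.32 ± 0.09, limma adjusted p = 0.0661), and Ppp1r15a, whose protein GADD34 helps to reverse eIF2alpha phosphorylation (0.39 ± 0.11, limma adjusted p = 0.0588), passed with the block (0.0117 and 0.0244), but not with equal totals and the block together (0.13 and 0.0901). The groups did not overlap for Atf6 either (0.22 ± 0.09, limma adjusted p = 0.171; 0.081 with the block).

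Of 19 other folding and degradation genes, 4 rose and none fell. Selenos, a selenoprotein of the degradation channel, was at 3449, 3438 and 3503 in stimulated and 2360, 2300 and 2209 in control replicates and rose by 0.60 ± 0.07 (limma adjusted p = 0.00347). Edem3, a relative of Edem1, rose by 0.59 ± 0.09 (limma adjusted p = 0.0085), and the calls of Selenos and Edem3 were kept in every fit tried. Syvn1, the ubiquitin ligase HRD1 of that pathway, rose by 0.42 ± 0.07 (limma adjusted p = 0.0141). It did not pass by limma without stimulated replicate 3 (0.0735), control replicate 1 (0.0655) or control replicate 3 (0.0655), with equal totals (0.0704) or without the trend (0.0616).

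Of 26 other ATF4 target genes, 4 rose, 1 fell and 21 did not pass. The stress hormone gene Fgf21 was at 29, 84 and 57 in stimulated and 1, 8 and 2 in control replicates, all low values, and rose by 3.81 ± 0.65 (limma adjusted p = 0.0125), where a pseudocount of 10 gave 2.23 and one of 0.1 gave 4.29; it was not called without stimulated replicate 3 (0.0705) or control replicate 3 (0.0562). The proline synthesis gene Aldh18a1 rose by 0.89 ± 0.20 (limma adjusted p = 0.0329). By limma this call was lost without any library but stimulated replicates 1 and 2 (adjusted p of 0.0665 to 0.124). It was also lost without both replicate 2 libraries (0.0797), with equal totals (0.0516) or without the trend (0.0859). The lipoprotein receptor gene Vldlr fell to 2653 ± 350 in stimulated samples, against 4399 ± 214 in controls (-0.74 ± 0.11, limma adjusted p = 0.00795), in every fit tried. Atf3, a stress-induced transcription factor gene, had a change of -0.28 ± 0.17 (limma adjusted p = 0.338). As with the stress targets, 24 of the 26 were highest in stimulated replicate 2 among the stimulated libraries, and 18 of the 26 in control replicate 2 among the controls.

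The other cytosolic synthetases and their scaffold gave 1 rise among 6 genes, that of the scaffold gene Eef1e1 (690, 662 and 741 in stimulated and 406, 385 and 410 in control replicates, 0.80 ± 0.10, limma adjusted p = 0.00395), kept in every fit tried. Of 17 mitochondrial synthetase genes, 1 rose, 1 fell and 15 did not pass, so that 11.8% were called, beside 13.4% of all genes tested. Their median log2 change was 0.00, beside 0.34 for the 17 cytosolic ones, and the difference between the lists was not tested. Yars2 rose by 0.50 ± 0.11 (limma adjusted p = 0.0256) and Vars2 changed by -0.48 ± 0.10 (0.0194). By limma Yars2 was not called when any single library was left out (adjusted p of 0.0505 to 0.0912) or both replicate 2 libraries were (0.0625). Nor was it called with upper-quartile factors (0.0574), with equal totals (0.0865) or without the trend (0.0535). Vars2 was not called without stimulated replicate 3 (0.0906), control replicate 1 (0.0697), control replicate 3 (0.088) or both replicate 2 libraries (0.0528). None of 4 other folate enzymes passed without the block, the smallest p belonging to Mthfd1 (0.24 ± 0.08, limma adjusted p = 0.11; 0.0452 with the block and 0.521 with equal totals and the block together).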

How the data were processed

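Per the labels' protocols, RNA was extracted with on-column DNase digestion and libraries were made with a stranded total RNA kit (SMARTer). DESeq2 1.18.1, featureCounts 1.6.3, STAR 2.6.1d and Trimmomatic 0.38 were used, with builds mm10, hg38 and GRCh38 listed, per the submitters' processing notes. Neither an annotation release nor a strand setting is given there. The deposited values are a score for each gene, read counts normalized by the authors and rounded to whole numbers, so no count model was used. Whole numbers that a library's values skip put the worth of 1 read at 1.322 and 1.136 in stimulated replicates 1 and 2 and at 1.075 and 1.031 in control replicates 1 and 3, so that sums of values overstate depth there; it could not be estimated in the other libraries.

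Values were used as log2(value + 1). Genes with a mean of at least 1 (21743, 42 left out) were fitted with limma 3.58.1 (R 4.3.3, with a mean-variance trend), the groups as the only term, and p-values were adjusted by Benjamini-Hochberg at a threshold of 0.05. The fit was tested on simulated data. Replicate numbers were taken to pair the samples because the deviations of same-numbered libraries from their group means correlated at 0.747, 0.741 and 0.218 over 13185 genes (mean of 50 or more). Of the pairs with unlike numbers, stimulated 1 with control 3 gave 0.287, above the 0.218 of number 3, and the others at most 0.0865; the meaning of a number is not labelled. Alternatives were the replicate block, other scalings, pseudocounts and filters, no trend, and leaving out libraries. Equal totals with the block were added after the data were seen.

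Values in every library are given for genes that passed with or without the block, for the gene of each role with the highest level per kilobase and with the largest change, and for Hspa5, Atf4, Ddit3, Xbp1, Asns and Aars. Of each list of other pathway genes, up to 3 with the smallest p are named, with Atf3, Ppp1r15a, Eif2ak3, Ern1 and Atf6. The 44 genes and the lists of other genes were chosen with earlier results of these data known. Gene names and exon overlaps come from GENCODE M21, where 21747 of 21785 identifiers were found. Promoter stretches are RefSeq windows of GRCm38.p6, and the promoter matches of 1 gene are not reported here.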

Additional observations from a re-analysis of the deposited data

How the results depend on the processing

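With the replicate number as a block, 5837 of all genes tested were called (55.4% of them higher), 17 of the 44 genes higher, and 28 of the other pathway genes higher and 6 lower. Without the trend these were 1610 of all genes, 1 of the 44 higher and 6 other pathway genes higher. With upper-quartile factors 2772 of all genes were called (51.2% of them higher) and 4 of the 44 were higher. With equal totals 3400 of all genes were called, 33.4% of them higher and the rest lower. At that setting 3 of the 44 were higher and 2 lower, and 6 other pathway genes higher and 5 lower. With equal totals and the block, 6958 of all genes were called, 29.35% of them higher and the rest lower. There 14 of the 44 were higher and 6 lower, and 18 other pathway genes were higher and 18 lower. Without both replicate 2 libraries 7 other pathway genes were higher. Leaving out 1 library gave 917 to 2384 of all genes, 1 to 11 of the 44 higher and 0 to 2 lower, and 4 to 18 other pathway genes higher and 1 to 3 lower.

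None of the 9 called genes changed sign, and 15 others did. With equal totals, with or without the block, the log2 changes were -0.02 for Hsp90b1, -0.04 for Dnajb9, -0.13 for Pdia4, -0.05 for Pdia6, -0.12 for Calr, -0.08 for Canx, -0.13 for Psat1, -0.09 for Phgdh, -0.17 for Aars, -0.02 for Hars, -0.09 for Kars and -0.11 for Vars. With upper-quartile factors they were -0.04 for Pdia4, -0.03 for Calr, -0.03 for Psat1, -0.08 for Aars, 0.00 for Kars and -0.02 for Vars, and with TMM factors 0.00 for Aars. Without both replicate 2 libraries they were -0.05 for Psat1, -0.21 for Phgdh, -0.18 for Aars and -0.09 for Vars. Leaving out 1 library gave -0.06 to 0.29 for Dnajb9, -0.03 to 0.00 for Creld2, -0.67 to 0.34 for Trib3, -0.10 to 1.54 for Chac1, -0.08 to 0.21 for Psat1, -0.10 to 0.27 for Phgdh, -0.19 to 0.14 for Aars and -0.07 to 0.13 for Vars. Scalings shift every gene by a common amount (median of all genes -0.20 for equal totals and -0.11 for upper-quartile factors), and leaving out libraries lowers the number of samples; other causes were not tested. Of 792 values of the 44 genes under alternatives, 661 kept their direction and side of the threshold.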
